A study of Homo sapiens with 17 samples.

Results

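The genes described here are keratins of simple and basal epithelium. They were chosen by symbol from a list of 10 names, drawn up with results of these same libraries known: KRT5, KRT7, KRT8, KRT10, KRT14, KRT16, KRT17, KRT18, KRT19 and KRT80. The deposited table of 16884 genes holds 9 of them, and KRT14 is not analysed here. The cells were wild-type BEAS-2B, a virally immortalised epithelial line from human bronchus, kept in BEGM, a serum-free bronchial epithelial growth medium. Messenger RNA was sequenced after 24 h in medium with 0 mM (control, 6 libraries), 10 mM (6 libraries) or 16 mM acetaldehyde (5 libraries). Acetaldehyde is a reactive aldehyde formed from ethanol and present in tobacco smoke. All groups share 1 line, so the libraries are not separate people, and the labels do not say whether they came from separate cultures. P-values below therefore measure the spread between libraries, which may be technical.

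Keratins are the intermediate filament proteins of epithelial cells. Each filament is built from pairs of a type I keratin (here KRT10, KRT16, KRT17, KRT18 and KRT19) and a type II keratin (KRT5, KRT7, KRT8 and KRT80), and a keratin without a partner is normally degraded. Type II genes lie in a cluster on chromosome 12 and type I genes on chromosome 17, except KRT18, which lies beside KRT8. In the airway, KRT8 and KRT18 mark luminal cells of simple type, KRT5 and KRT14 mark basal cells, and KRT16 and KRT17 are known as keratins of injured or stressed epithelium.

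The label fits these cells only in part. The simple pair KRT8 and KRT18, with KRT7, made up 92.9 ± 1.45% of the summed FPKM of the 9 keratins in control (SD, n = 6). FPKM scales fragments for transcript length and library depth, so levels of different genes can be compared. KRT19, also of simple epithelium, had 1 count in all libraries together, and the basal keratin KRT5 did not exceed 0.12 FPKM in any of them. Some other defining markers were near 0: TP63 reached at most 0.1 FPKM, EPCAM 0.05 FPKM and CDH1 0.12 FPKM. Of 6 airway basal markers in the table, 3 averaged over 1 FPKM in control: ITGA6 (22.1 FPKM), DLK2 (12.8 FPKM) and NGFR (1.44 FPKM). Of 10 simple epithelial markers 3 did: ESRP2 (4.0 FPKM), and KRT8 and KRT18, which are members of the list described here. No club or goblet marker averaged over 1 FPKM in any group.

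Estimated counts per library lay between 15952673 and 18809242. Library 1 of the 10 mM group stood far from all others. Its trimmed-mean (TMM) scaling factor was 0.559, against 0.967 to 1.11 in the other 16 libraries, so the values below leave it out unless it is named. The other libraries fell close together in blocks that follow their numbers. Within a group, the chi-square per gene between neighbours was 1.72 to 4.14, and 20.5 to 53.9 between libraries with lower numbers (1 to 3, or 2 to 4 at 10 mM) and those with higher numbers, with control library 1 in between at 11.3 and 11.6 to its neighbours. No pair agreed within sampling noise, and none was counted as 1 sample. The labels name no batch, so these blocks are given as found, and the change of each tested keratin against control is also given within the lower-numbered and the higher-numbered libraries. Each dose was compared with the same 6 controls.

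KRT17, a type I keratin induced in wounded epithelium, was the member that differed most widely with dose among the abundant ones. The gene spans chromosome 17 from 41619442 to 41624575 (GRCh38.p13, the deposited coordinates). Its FPKM was 34.5, 41.9, 38.6, 58.2, 60.9 and 56.1 in control, then 87.7, 88.1, 81.5, 97.7 and 101 in 10 mM libraries 2 to 6, and 154, 190, 164, 193 and 202 at 16 mM. The 3 groups did not overlap: the lowest 10 mM library lay above the highest control, and the lowest 16 mM library above the highest 10 mM library. The edgeR log2 change was 0.91 ± 0.16 (SE) at 10 mM against control and 1.91 ± 0.16 at 16 mM against control, or 1.88-fold and 3.77-fold. Between the doses it was 1.00 ± 0.16, a 2.00-fold difference. Within the lower-numbered libraries the change at 16 mM was 2.15 ± 0.076 and within the higher-numbered ones 1.79 ± 0.047. At 10 mM these values were 1.18 ± 0.078 and 0.77 ± 0.05, and between the doses 0.97 ± 0.07 and 1.02 ± 0.051.

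KRT16, the type I keratin that pairs with KRT6 proteins in injured epidermis, was also higher in all treated libraries, but at a level far below that of KRT17. It had 0.09, 0.31, 0.45, 0.40, 0.26 and 0.26 FPKM in control, then 0.63, 1.28, 1.17, 0.59 and 0.87 FPKM in 10 mM libraries 2 to 6, and 0.81, 1.60, 0.75, 0.80 and 0.91 FPKM at 16 mM. Every treated library lay above every control, while the 2 doses overlapped. Summed counts behind these levels were 40 in control, 102 at 10 mM and 109 at 16 mM. The log2 change was 1.60 ± 0.33 at 10 mM against control, 1.73 ± 0.32 at 16 mM against control and 0.13 ± 0.29 between 16 mM and 10 mM. Between the doses, the estimate for KRT16 was thus within its SE, and whether it differed from that for KRT17 was not tested. Within the lower-numbered libraries its change against control was 1.86 ± 0.48 at 10 mM and 1.90 ± 0.48 at 16 mM, and within the higher-numbered ones 1.23 ± 0.4 and 1.5 ± 0.38. The ratio of KRT17 to KRT16 FPKM was 200 ± 105 in control (n = 6), 112 ± 42.8 at 10 mM (n = 5) and 198 ± 47.9 at 16 mM (n = 5). It was 22 in 10 mM library 1, below all others.

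KRT16 and KRT17 are close relatives on chromosome 17, so the longest stretch that their coding sequences share is shown, in capitals, between the bases that flank it. A read that lies wholly within it fits both genes. Both lines are coding sequence of the minus strand (GENCODE 29, build GRCh38), and each runs across an intron.
KRT16, chr17:41610234-41610418: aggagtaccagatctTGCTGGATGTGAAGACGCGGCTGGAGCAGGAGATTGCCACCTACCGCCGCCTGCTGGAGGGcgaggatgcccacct
KRT17, chr17:41620556-41620746: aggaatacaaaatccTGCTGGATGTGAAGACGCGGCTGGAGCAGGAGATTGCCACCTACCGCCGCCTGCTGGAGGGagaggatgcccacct
The run of 61 shared bases is the longest between their coding sequences, of 1422 and 1299 bases. Their last 60 coding bases, which encode part of the tail, share no run over 6 bases.
KRT16, chr17:41609935-41609994: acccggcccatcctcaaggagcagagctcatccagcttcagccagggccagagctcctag
KRT17, chr17:41619594-41619653: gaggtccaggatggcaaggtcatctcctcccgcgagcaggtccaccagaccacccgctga
Of all windows of 50 coding bases, 1.17% of those in KRT16 occur in KRT17 and 1.28% of those in KRT17 occur in KRT16. The only other pair of the 9 with such windows was KRT8 and KRT80, with a longest run of 65 bases. RefSeq also lists pseudogenes named after KRT8 (52), KRT18 (68), KRT16 (6), KRT17 (8) and KRT19 (5). Neither the read length nor the handling of shared reads is stated, so the split of counts between these copies is uncertain.

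**Figure D1:**
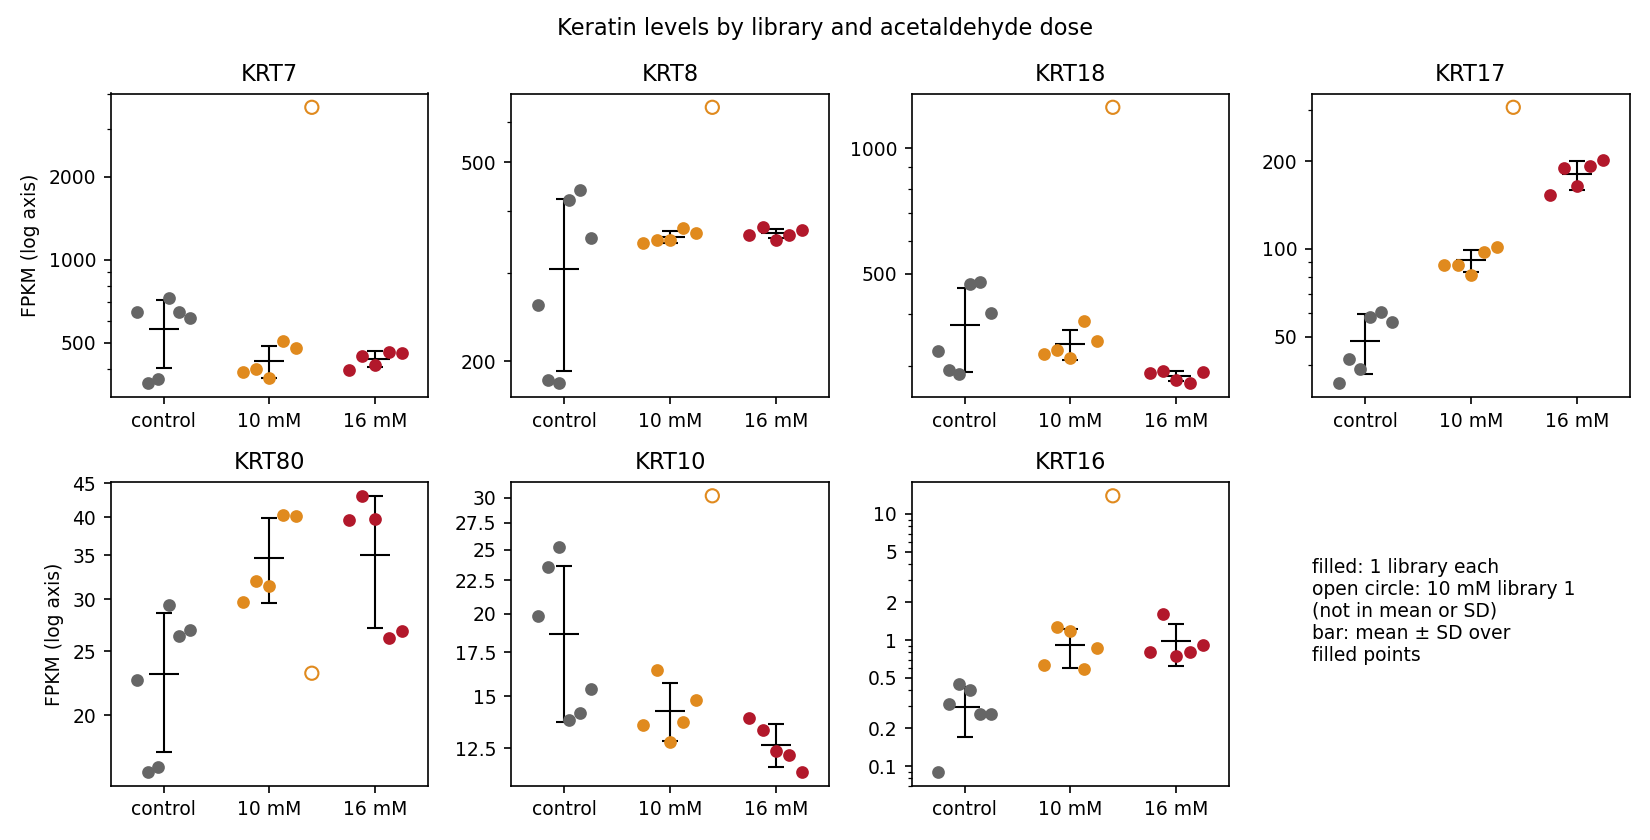
FPKM of 7 keratins (log axis, a scale of its own in each panel) in control, 10 mM and 16 mM acetaldehyde; each filled point is 1 library, the bar is the mean ± SD of the filled points, and the open circle is 10 mM library 1. KRT17 steps up at each dose, with at least 154 FPKM at 16 mM against at most 60.9 FPKM in control, and the open circle is the highest point of every panel but that of KRT80.

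KRT8 and KRT18 form the filament pair of simple epithelium, and they did not keep their ratio. KRT8, the type II partner, had 259, 184, 181, 420, 440 and 353 FPKM in control. It had 345, 350, 349, 369 and 361 FPKM in 10 mM libraries 2 to 6 and 358, 371, 349, 358 and 365 FPKM at 16 mM. The controls thus lay on both sides of the treated libraries, which were nearly level with each other. The log2 change was 0.20 ± 0.21 at 10 mM and 0.24 ± 0.21 at 16 mM, each against control. The blocks differed in sign. Within the lower-numbered libraries the change was 0.76 ± 0.11 at 10 mM and 0.79 ± 0.11 at 16 mM, and within the higher-numbered ones -0.15 ± 0.066 and -0.13 ± 0.066.

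KRT18, the type I partner, ran the other way in its estimate. Its control libraries ranged over 288 to 479 FPKM with a median of 365 FPKM, the 10 mM libraries 2 to 6 had 321, 329, 314, 386 and 346 FPKM, and the 16 mM libraries had 289, 292, 278, 273 and 291 FPKM. All 16 mM libraries lay below all of these 10 mM libraries, and 3 of them lay above the lowest control. The log2 change was -0.16 ± 0.14 at 10 mM against control, -0.40 ± 0.14 at 16 mM against control and -0.24 ± 0.15 between the doses. At 16 mM it was -0.08 ± 0.055 within the lower-numbered and -0.64 ± 0.066 within the higher-numbered libraries, and at 10 mM 0.10 ± 0.055 and -0.31 ± 0.065.

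The ratio of KRT18 to KRT8 FPKM was 1.3 ± 0.236 in control (SD, n = 6), 0.955 ± 0.057 at 10 mM (n = 5) and 0.79 ± 0.017 at 16 mM (n = 5). It lay between 1.09 and 1.60 in control, 0.898 and 1.05 at 10 mM, and 0.763 and 0.809 at 16 mM, so the 3 groups did not overlap without 10 mM library 1. That library had a ratio of 1.95, above every control, and with it the 10 mM group lay on both sides of the controls. Without it, the ordering held in both blocks of libraries: the higher-numbered controls, at 1.12, 1.09 and 1.14, lay above 10 mM libraries 5 and 6, at 1.05 and 0.956, and these above 16 mM libraries 4 and 5, at 0.763 and 0.796. Among single genes, FPKM did not overlap for 29.2% at 10 mM against control, 46.2% at 16 mM against control and 30.7% between doses. How often ratios of other gene pairs separate was not tested. KRT8 and KRT18 lie beside each other on chromosome 12 and overlap in the table's coordinates, where KRT8 spans 52897191 to 52949954 and KRT18 spans 52948855 to 52952906 (GRCh38.p13). No source says whether the reads keep strand, and without strand reads in the overlap might be assigned to either gene. Whether exons overlap there was not tested. RefSeq also lists antisense genes over KRT7 (KRT7-AS) and KRT10 (KRT10-AS1), for which the same holds.

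KRT7, a type II keratin of ductal and glandular epithelium, had the highest level of the 9 genes. Control libraries ranged over 355 to 725 FPKM with a median of 629 FPKM, the 10 mM libraries 2 to 6 had 391, 402, 371, 506 and 476 FPKM, and the 16 mM libraries had 396, 447, 414, 463 and 457 FPKM. Control libraries 2 and 3 lay below all treated libraries and the other 4 above all of them. The log2 change was -0.39 ± 0.19 at 10 mM and -0.35 ± 0.19 at 16 mM, and the doses differed by 0.04 ± 0.19. Without control library 2 the estimates passed the test, at -0.50 and -0.46, and without control library 3 likewise, at -0.49 and -0.46. Within the higher-numbered libraries they passed it too, at -0.43 ± 0.06 for 10 mM and -0.49 ± 0.06 for 16 mM, whereas within the lower-numbered ones they did not, at -0.23 ± 0.17 and -0.13 ± 0.17. The ratio of KRT7 to KRT8 was 1.90 ± 0.356 in control, 1.21 ± 0.131 at 10 mM and 1.21 ± 0.0687 at 16 mM, and it was 5.57 in 10 mM library 1.

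KRT80, a type II keratin tied to epithelial differentiation, was higher at both doses. Control libraries ranged over 16.4 to 29.4 FPKM with a median of 24.5 FPKM. The 10 mM libraries 2 to 6 had 29.8, 32.0, 31.4, 40.3 and 40.1 FPKM, all above the highest control, and the 16 mM libraries had 39.6, 43.1, 39.7, 26.2 and 26.8 FPKM. The first 3 libraries at 16 mM lay above every control and the last 2 among the controls. The log2 change was 0.58 ± 0.18 at 10 mM and 0.60 ± 0.18 at 16 mM. The value at 16 mM came from the lower-numbered libraries, where it was 1.14 ± 0.098, against -0.02 ± 0.052 in the higher-numbered ones, while at 10 mM both blocks gave a positive change (0.75 ± 0.099 and 0.54 ± 0.049). Between 16 mM and 10 mM the blocks gave called changes of opposite sign, 0.39 ± 0.094 in the lower-numbered and -0.56 ± 0.055 in the higher-numbered libraries.

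KRT10, the type I keratin of suprabasal epidermis, had a lower estimate at both doses in the 16 libraries and in each block, as KRT7 had. Control libraries ranged over 13.8 to 25.3 FPKM with a median of 17.6 FPKM, the 10 mM libraries 2 to 6 had 13.6, 16.5, 12.8, 13.7 and 14.8 FPKM, and the 16 mM libraries had 13.9, 13.3, 12.4, 12.2 and 11.5 FPKM. The treated libraries overlapped the lowest controls. The log2 change was -0.38 ± 0.12 at 10 mM and -0.53 ± 0.13 at 16 mM. Within the lower-numbered libraries these were -0.66 ± 0.094 and -0.79 ± 0.096, and within the higher-numbered ones -0.02 ± 0.073 and -0.25 ± 0.075. The call at 10 mM was lost without control library 2 (-0.31), control library 3 (-0.28), 10 mM library 2 (-0.35) or 10 mM library 4 (-0.33), and the call of KRT18 at 16 mM was lost without control library 4 or 5 (-0.31 each).

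KRT5, the type II keratin of basal cells, was counted 12 times in control, 1 time at 10 mM and 0 times at 16 mM. A count of 0 at 16 mM allows an upper limit of 3 counts over the group. Scaled for library depth, the control level of KRT5 as counted was 3.3-fold above that limit. Counting error of the 12 control counts was left out, so 3.3-fold is not a lower bound on the difference. KRT5 was too low for the filter on low counts. Without that filter edgeR gave it a log2 change of -2.70 ± 0.97 at 10 mM (adjusted p = 0.0448). At 16 mM that fit gave -4.07 ± 1.2 (adjusted p = 0.00795), and both values rest on these few counts. KRT19, a type I keratin with almost no tail, had 0 counts in control, 0 at 10 mM and 1 at 16 mM. The limit for KRT5 covers counting error at 16 mM only, and not the spread between libraries.

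**Figure D2:**
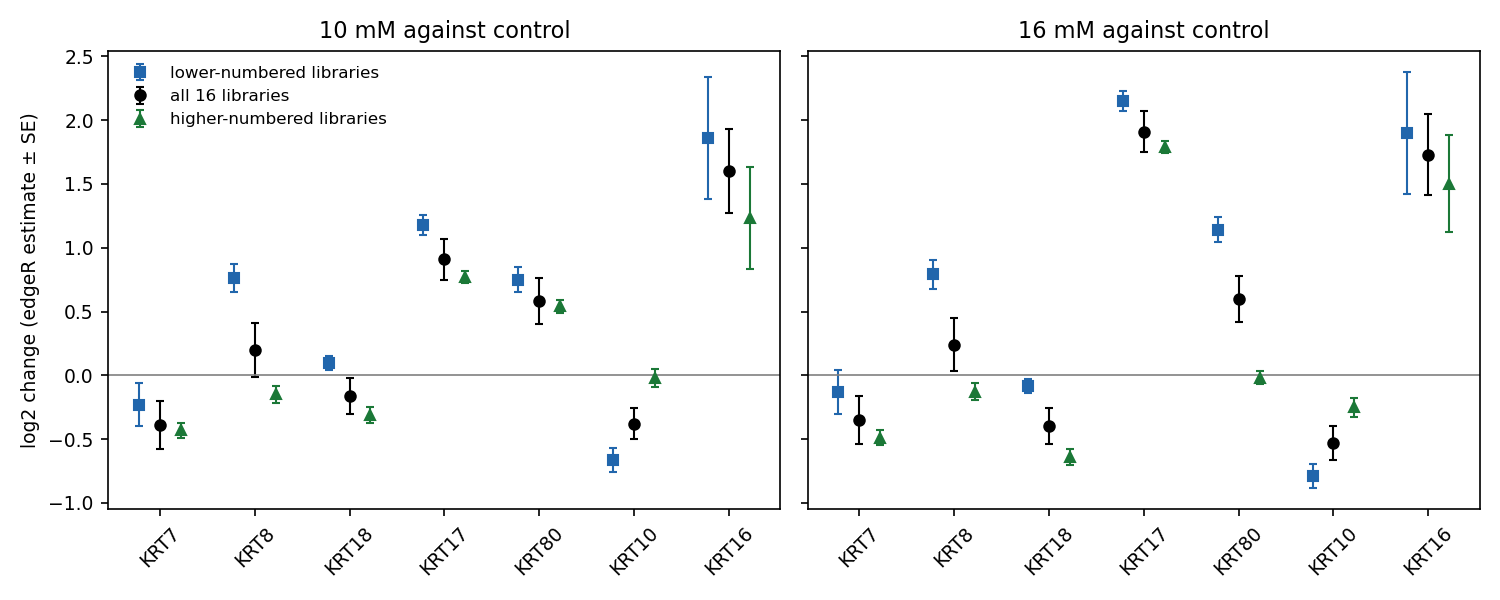
Log2 change of 7 keratins at 10 mM (left) and 16 mM (right) against control, as edgeR estimates ± SE; circles use 16 libraries, squares the lower-numbered libraries (control 1 to 3, 10 mM 2 to 4, 16 mM 1 to 3) and triangles the higher-numbered ones (control 4 to 6, 10 mM 5 and 6, 16 mM 4 and 5). KRT17 and KRT16 lie above 0 in every fit, while KRT8 at 16 mM is at 0.79 for the squares and -0.13 for the triangles.

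Of the 9 keratins in the table, 7 passed the filter on low counts. At an adjusted p under 0.05 in edgeR, 4 of 7 were called at 10 mM (KRT16, KRT17 and KRT80 higher, KRT10 lower), where 45.2% of 12545 genes were called, 22.4% higher and 22.8% lower. At 16 mM 5 of 7 were called (the same 3 higher, KRT10 and KRT18 lower), where 65.9% of genes were called, 33.7% higher and 32.2% lower. Between the doses KRT17 alone was called, where 44.1% of genes were. FPKM did not overlap between 10 mM and control for KRT16, KRT17 and KRT80, beside 29.2% of all tested genes, and between 16 mM and control for KRT16 and KRT17, beside 46.2%. Between 16 mM and 10 mM, KRT17 and KRT18 did not overlap, beside 30.7%. The genes were chosen from these same contrasts, so nothing is read from these counts. With close libraries summed into 2 values per group, edgeR called 0 of 7 at 10 mM (3 at an unadjusted p under 0.05: KRT16, KRT17 and KRT80), beside 1.83% of 13465 genes, and 2 of 7 at 16 mM (KRT16 and KRT17), beside 25.8%.

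Outside 10 mM library 1, the make-up of the keratin pool differed more than its size. The 9 keratins together held 0.253 ± 0.0621% of all TPM (a share of transcripts, scaled for length) in control, 0.239 ± 0.0124% at 10 mM and 0.251 ± 0.00902% at 16 mM, differences well within the spread of the controls. That spread followed the blocks. Controls 4 to 6, at 0.322, 0.308 and 0.279%, lay above the higher-numbered treated libraries, at 0.246 to 0.255%. Controls 2 and 3, at 0.178 and 0.181%, lay below the lower-numbered treated libraries, at 0.224 to 0.267%. Control 1, at 0.249%, lay among the latter. KRT17 made up 3.71 ± 0.67% of the keratins' summed FPKM in control, 7.22 ± 0.26% at 10 mM and 13.8 ± 1.06% at 16 mM. Its share was at least 12.3% at 16 mM and did not exceed 4.58% in control. KRT7, KRT8 and KRT18 together made up 92.9 ± 1.45% in control, 88.8 ± 0.358% at 10 mM and 82.5 ± 0.597% at 16 mM. Type I keratins summed to 0.52 ± 0.0939 of the type II sum in control, 0.545 ± 0.011 at 10 mM and 0.576 ± 0.0115 at 16 mM, with overlap between the control and both doses. In 10 mM library 1 the 9 keratins held 0.599% of all TPM, above every other library, and KRT17 made up 5.24% of their FPKM, below the 6.92 to 7.56% of the other 10 mM libraries. KRT7, KRT8 and KRT18 made up 93.6% there, and the ratio of type I to type II was 0.378. Among the 16 other libraries, controls had the largest coefficient of variation for all 7 tested keratins. That of KRT8 was 37.6% in control, 2.79% at 10 mM and 2.25% at 16 mM. The share of all genes with the largest value in control was not computed. Over all compared genes, controls also lay furthest apart, with a chi-square per gene of up to 53.9. Among the same libraries it was at most 25.9 at 10 mM and 33.8 at 16 mM. The larger spread of the controls is therefore not read as particular to keratins.

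**Figure D3:**
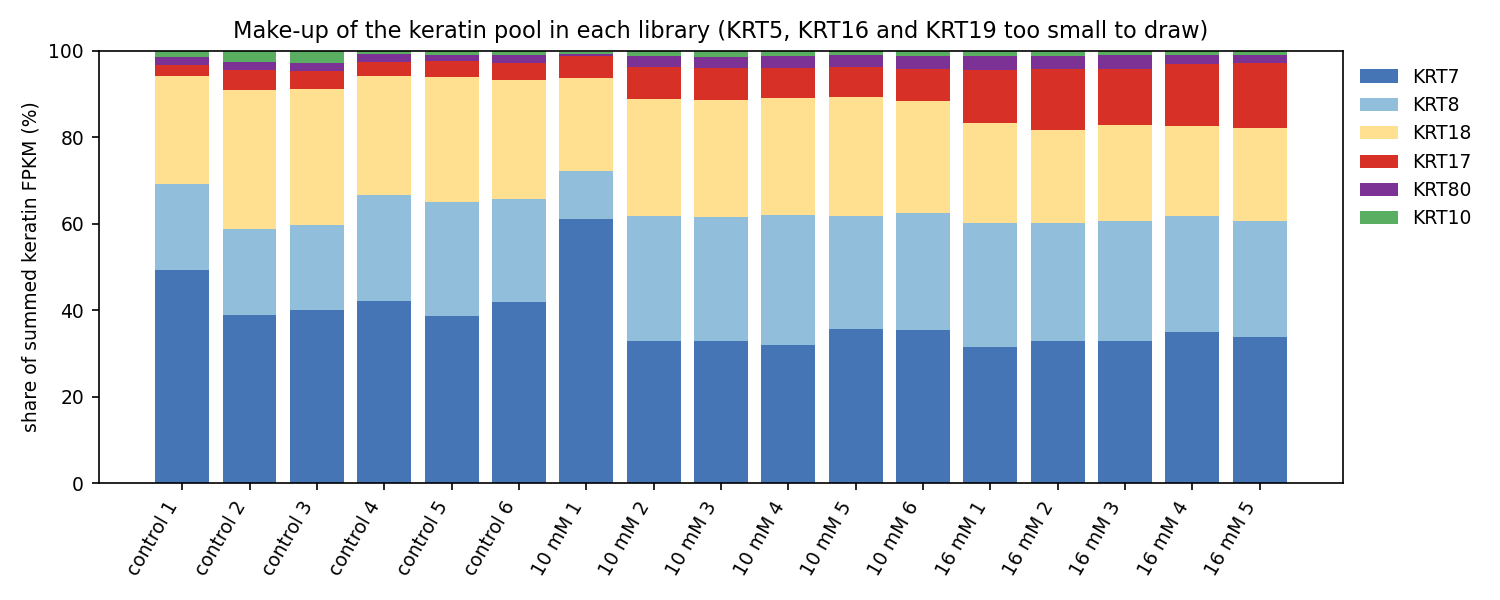
Share of the summed FPKM of the 9 keratins (vertical axis, percent) held by each of 6 keratins in the 17 libraries, ordered by dose; KRT5, KRT16 and KRT19 are too small to see. The KRT17 segment widens with dose, with at least 12.3% at 16 mM against at most 4.58% in control, and 10 mM library 1 stands out by its large KRT7 segment.

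The share of all genes that were highest in library 1 of the 10 mM group was not computed. That library had the highest level of all 17 libraries for 6 of the 7 tested keratins. It held 3584 FPKM of KRT7, against a median of 402 FPKM in the other 10 mM libraries, 1254 FPKM of KRT18, against 329, and 643 FPKM of KRT8, against 350. KRT17 was at 307 FPKM there, against 88.1, KRT16 at 13.9 FPKM, against 0.87, and KRT10 at 30.2 FPKM, against 13.7. KRT80 was at 23.2 FPKM in library 1, against 32.0 in the other 10 mM libraries. On the TMM-scaled log2 CPM scale the difference between library 1 and the rest of its group was 4.79 for KRT16, 4.00 for KRT7, 2.82 for KRT18, 2.68 for KRT17, 2.00 for KRT10 and 1.78 for KRT8, where the median of 12564 genes was -0.12. For KRT80 it was 0.34 on that scale, opposite in sign to the FPKM ratio of 0.667. Ranked among the differences of all 12564 genes, KRT16 stood at percentile 99.9, KRT7 at 99.8, KRT18 at 98.2 and KRT17 at 97.4. KRT10 stood at 90.9, KRT8 at 88.2 and KRT80 at 60.9. The hair keratins KRT81 (8.42 FPKM in library 1, against 0.73 to 1.3) and KRT34 (2.48 FPKM, against 0 to 0.36) were high there too, and KRT23 and KRT32 had 7 counts each, with 0 counts in every other library.

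With library 1 included, the change at 10 mM against control turned positive for KRT7 (1.4), KRT18 (0.84) and KRT10 (0.20), and it was 1.83 for KRT17 and 4.05 for KRT16. The authors' deposited table gives log2 changes of 1.48 for KRT7, 0.90 for KRT18, 0.26 for KRT10, 1.89 for KRT17 and 4.21 for KRT16 in that contrast, close to these values. Its log2 change of KRT17 between 16 mM and 10 mM is 0.03, against 1.00 here without library 1. The fit with all 17 libraries called 3 keratins at 10 mM (KRT16, KRT17 and KRT80), beside 18.7% of all genes, and 2 at 16 mM (KRT17 and KRT80), beside 35.3%. It called 0 of 7 between the doses, beside 14.1%, with 4 at an unadjusted p under 0.05.

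The table lists 20 other keratins, nearly all barely detected, and 2 passed the filter on low counts. Both, and the genes named next, were singled out after their values were seen. KRT38, a type I hair keratin, had 1.07, 1.12, 1.29, 0.60, 0.84 and 0.79 FPKM in control, against 0.15, 0.27, 0.23, 0 and 0.05 FPKM in 10 mM libraries 2 to 6 and 0.13, 0.23, 0.19, 0 and 0.05 FPKM at 16 mM. It fell by 2.73 ± 0.47 on the log2 scale at 10 mM (edgeR adjusted p = 0.000185) and by 2.97 ± 0.49 at 16 mM (adjusted p = 4.32e-05). Within the lower-numbered libraries the changes were -2.38 ± 0.26 and -2.66 ± 0.27, and within the higher-numbered ones -4.73 ± 0.61 and -4.71 ± 0.62, where 10 mM library 5 and 16 mM library 4 are listed at 0. With close libraries summed the adjusted p was 0.106 at 10 mM and 0.0266 at 16 mM. Library 1 of the 10 mM group held 0.09 FPKM. KRT81 did not pass the test at either dose, at -0.31 ± 0.22 and -0.04 ± 0.22. KRT34, too low for the filter, had 2 counts in control, 20 at 10 mM and 69 at 16 mM, with every 16 mM library at 0.27 FPKM or more and every control at 0.05 FPKM or less. Without the filter edgeR gave it an adjusted p of 0.00949 at 10 mM and 1.13e-05 at 16 mM. KRT6A, a type II partner of KRT16 and KRT17 in epidermis, stayed at or below 0.15 FPKM in all 16 libraries.

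Other intermediate filament genes numbered 7 among those tested, of which 1 rose and 0 fell at 10 mM, and 1 rose and 2 fell at 16 mM. The calls made up a smaller share than the 45.2% and 65.9% of all genes called at these doses. VIM, which encodes vimentin of mesenchymal and cultured cells, was the most abundant of them, at 554 ± 66.4 FPKM at 16 mM and 773 ± 175 FPKM in control. It fell by 0.47 ± 0.17 at 16 mM (edgeR adjusted p = 0.0205), a call lost without 16 mM library 1 (-0.41) or 3 (-0.42). LMNB2, a lamin of the nuclear envelope, fell by 0.32 ± 0.082 (adjusted p = 0.00227). SYNM, which encodes synemin, a filament protein that joins vimentin or desmin filaments, rose by 0.78 ± 0.05 at 10 mM (adjusted p = 7.35e-09) and by 1.20 ± 0.05 at 16 mM (adjusted p = 1.06e-11). Library 1 of the 10 mM group went against that rise, with 2.47 FPKM of SYNM, against 10.3 ± 1.16 FPKM in control (-1.19 on the TMM-scaled log2 CPM scale), and it held 1401 FPKM of VIM and 28.9 FPKM of LMNB2. The median log2 change of the list was 0.15 at 10 mM and -0.32 at 16 mM, beside 0.00 and 0.01 over all genes.

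Keratin filaments are anchored at desmosomes, which join neighbouring cells, and at hemidesmosomes, which hold cells to the basement membrane. Of 19 tested genes of these junctions and their plakin linkers, 5 rose and 10 fell at 10 mM, and 5 rose and 11 fell at 16 mM. Over all genes 22.4% rose and 22.8% fell at 10 mM, and 33.7% rose and 32.2% fell at 16 mM. The median log2 change of the list was -0.12 and -0.32. ITGB4, the integrin chain that ties hemidesmosomes to keratin, was at 18 ± 4.63 FPKM at 16 mM and 70.9 ± 4.40 FPKM in control, and fell by 1.97 ± 0.15 (edgeR adjusted p = 7.89e-09). Its partner chain ITGA6 fell by 0.87 ± 0.066 (adjusted p = 7.8e-09). The plakophilin PKP2, a desmosome plaque protein, was at 9.75 ± 2.51 FPKM at 16 mM and 32.5 ± 4.77 FPKM in control, and fell by 1.73 ± 0.14 (adjusted p = 2.39e-08). PKP4 fell by 0.93 ± 0.055 (adjusted p = 5.07e-10).

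At 10 mM the falls were smaller for ITGB4 (0.83 ± 0.14, adjusted p = 0.000177), PKP2 (0.84 ± 0.14, adjusted p = 0.00013) and PKP4 (0.72 ± 0.054, adjusted p = 4.61e-08). That of ITGA6 was smaller too (0.31 ± 0.064, adjusted p = 0.000846). The 5 genes that rose at both doses were JUP, EVPL, PERP, LAMB3 and EPPK1. EPPK1 was very low, with a mean of 0.0667 FPKM in control, 0.296 FPKM at 10 mM and 0.222 FPKM at 16 mM. In 10 mM library 1 it was below control, at 0.02 FPKM (-1.15 on the TMM-scaled log2 CPM scale). JUP encodes plakoglobin of the desmosome plaque and rose by 0.88 ± 0.15 at 10 mM (adjusted p = 0.000214) and 0.74 ± 0.15 at 16 mM (adjusted p = 0.000446). EVPL, which encodes envoplakin, rose by 0.54 ± 0.086 at 10 mM (adjusted p = 9.33e-05). PPL, the periplakin gene, named after its values were seen, fell by 2.15 ± 0.19 at 16 mM (adjusted p = 5.95e-08), the lowest change of the list. DSP, the desmoplakin that links keratin to the desmosome, was at -0.05 ± 0.055 at 16 mM and did not pass the test. With close libraries summed, 1 gene of the 19 was called at 10 mM, beside 1.83% of all genes, and 10 at 16 mM, beside 25.8%. In 10 mM library 1, ITGB4 was at 9.58 FPKM, PKP2 at 6.85, PKP4 at 7.04, ITGA6 at 3.21 and PPL at 10.1 FPKM, all below the control means, as in the rest of the group. JUP was above its control mean there (11.3 FPKM, against 8.38), but EVPL was below it (1.35 FPKM, against 5.15), and so was DSP (8.70 FPKM, against 35.7).

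**Figure D4:**
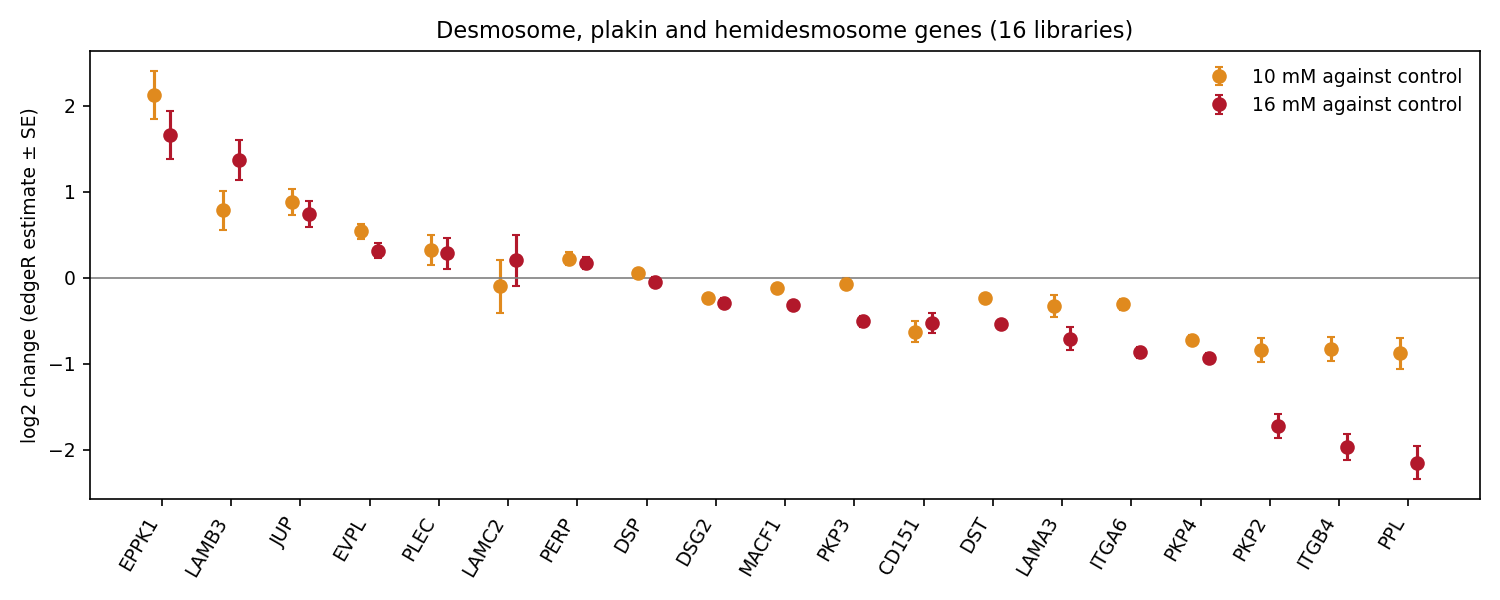
Log2 change at 10 mM (orange) and 16 mM (red) against control of the 19 tested junction and linker genes, as edgeR estimates ± SE over 16 libraries, ordered by the change at 16 mM. Genes at the right end fell furthest at 16 mM (PPL by 2.15, ITGB4 by 1.97 and PKP2 by 1.73), while EPPK1, LAMB3, JUP, EVPL and PERP stand above 0 at both doses. The mean level of EPPK1 did not exceed 0.296 FPKM in any group.

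Among 5 tested genes of the cornified envelope and squamous differentiation, 1 rose and 1 fell at each dose, where 45.2% of all genes were called at 10 mM and 65.9% at 16 mM. TGM1, the transglutaminase that cross-links the envelope, fell by 0.99 ± 0.2 at 10 mM (edgeR adjusted p = 0.000594) and by 1.45 ± 0.2 at 16 mM (adjusted p = 8.77e-06). SFN, the 14-3-3 sigma protein that binds keratin, rose by 1.34 ± 0.28 at 16 mM (adjusted p = 0.000434), with a mean of 134 ± 57.2 FPKM there and 54.1 ± 15.9 FPKM in control. At 10 mM SFN did not pass the test (0.48 ± 0.28, adjusted p = 0.175). CNFN, a cornified envelope protein, rose by 1.05 ± 0.34 at 10 mM (adjusted p = 0.0175), a call lost without 10 mM library 3 (0.92). Library 1 of the 10 mM group held 0.50 FPKM of TGM1, 472 FPKM of SFN and 7.92 FPKM of CNFN, on the same side of the control means as the changes just given.

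Of 23 tested transcription factors known to bind or control keratin genes, 4 rose and 4 fell at 10 mM, and 7 rose and 2 fell at 16 mM, smaller shares than the 45.2% and 65.9% of all genes called. FOSL1, an AP-1 subunit of epithelial wound responses, was at 45.8 ± 16.1 FPKM at 16 mM and 3.20 ± 1.59 FPKM in control, a rise of 3.89 ± 0.3 (edgeR adjusted p = 9.4e-09). At 10 mM it rose by 2.36 ± 0.3 (adjusted p = 9.88e-06). The AP-1 partners JUN and JUNB did not pass the test, at -0.04 ± 0.27 and -0.06 ± 0.19 at 16 mM. Of the other AP-1 genes listed, JUND rose by 0.63 ± 0.14 at 10 mM (adjusted p = 0.00147) and FOSL2 by 0.38 ± 0.14 at 16 mM (adjusted p = 0.0285), while FOS passed the test at neither dose (0.39 ± 0.4 and -0.61 ± 0.41). JUN, JUNB, JUND, FOSL2 and FOS were named after their values were seen. RELA, a subunit of NF-kappa-B, rose by 0.65 ± 0.06 at 16 mM (adjusted p = 8.62e-08) and TFAP2C, an AP-2 factor, by 0.55 ± 0.061 (adjusted p = 6.82e-07). RARG, a retinoic acid receptor, fell by 0.47 ± 0.058 (adjusted p = 2.24e-06). At 10 mM KLF5 fell by 0.37 ± 0.06 (adjusted p = 0.000123), ZEB1 by 0.51 ± 0.1 (adjusted p = 0.00054) and NFE2L2 by 0.32 ± 0.063 (adjusted p = 0.000571), and these 3 did not pass the test at 16 mM. TFAP2C rose at 10 mM as well, by 0.31 ± 0.062 (adjusted p = 0.000619). TP63, the master factor of basal cells, was too low to test. In 10 mM library 1, FOSL1 was at 122 FPKM and RELA at 56.5 FPKM, above their control means, whereas TFAP2C (3.13 FPKM, against 6.36 in control), RARG (4.25, against 17.7), KLF5 (7.57, against 21.8) and ZEB1 (2.11, against 7.55) were below them. JUND was at 16.9 FPKM there, against 25.6 FPKM in control, but 0.34 above control on the TMM-scaled log2 CPM scale, and FOSL2, JUN, JUNB, FOS and NFE2L2 likewise were lower in FPKM and higher on that scale.

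Of 21 genes for keratin organisation, phosphorylation and turnover, 7 rose and 2 fell at 10 mM, and 10 rose and 4 fell at 16 mM, with a median log2 change of 0.12 and 0.13. These shares lay near the 45.2% and 65.9% of all genes called. FAM83H, which recruits casein kinase to keratin filaments, rose by 0.63 ± 0.071 at 10 mM (edgeR adjusted p = 3.08e-06) and 0.71 ± 0.071 at 16 mM (adjusted p = 1.76e-07). PRKCD, a protein kinase C, rose by 0.61 ± 0.096 at 10 mM (adjusted p = 9.11e-05) and 0.79 ± 0.096 at 16 mM (adjusted p = 1.92e-06). TCHP, the keratin-binding protein trichoplein, fell by 0.45 ± 0.07 at 10 mM (adjusted p = 7.9e-05) and 0.58 ± 0.07 at 16 mM (adjusted p = 1.71e-06). STUB1, a chaperone-linked ubiquitin ligase, fell by 0.45 ± 0.05 at 16 mM (adjusted p = 5.45e-07). At 10 mM STUB1 did not pass the test (-0.11 ± 0.049, adjusted p = 0.0835), so its 16 mM change is the one set against library 1 next. Library 1 of the 10 mM group went against 3 of these changes, with 4.93 FPKM of FAM83H (10.2 in control), 5.78 FPKM of PRKCD (13.6 in control) and 124 FPKM of STUB1 (69.0 in control), while TCHP, at 9.05 FPKM, was below its control mean of 21.0. On the TMM-scaled log2 CPM scale library 1 lay at -0.14 against control for FAM83H, -0.33 for PRKCD, 1.77 for STUB1 and -0.21 for TCHP.

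Markers of other cell types were looked at beside these results. The summed FPKM of 7 fibroblast markers lay between 15.0 and 25.1 in control, 11.0 and 16.7 at 10 mM, and 4.91 and 10.0 at 16 mM, mainly PDGFRB and COL1A1, while COL1A2 and COL3A1 did not exceed 0.01 FPKM. The 6 endothelial and immune markers summed to between 2.67 and 4.41 in control, 7.82 and 9.86 at 10 mM, and 9.82 and 13.3 at 16 mM, nearly all CD68, with PTPRC at or below 0.01 FPKM. Their part in the keratin values was not tested. In bulk RNA, fewer cells of a kind and less RNA per cell cannot be told apart.

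The genes whose levels ran most like those of the 3 most abundant keratins are given as a description, over 16 libraries that share their blocks and depth. For KRT8 they were LMNA (r = 0.977), KIF11 (0.972), PLEC (0.965), TM4SF1 and PTOV1 (0.962 each), by Pearson correlation of TMM-scaled log2 CPM across genes that are no members. LMNA had 181, 144, 142, 272, 280 and 247 FPKM in control, 226, 230, 216, 253 and 245 FPKM in 10 mM libraries 2 to 6, and 222, 231, 217, 250 and 258 FPKM at 16 mM, so its control libraries 2 and 3 were low as those of KRT8 were. PLEC, which encodes plectin, the linker of intermediate filaments, had the same 2 lowest controls, at 33.0 and 32.1 FPKM. For KRT18 the 5 genes were CAV1 (0.978), THY1 (0.970), RHOBTB2 (0.969), SRI (0.963) and EHD2 (0.962), and for KRT7 they were EDN1 (0.930), IPO5 (0.929), GNG11 (0.925), MN1 (0.916) and CYP1B1 (0.913). Among the keratins, the 21 pairs ran from r = -0.84 (KRT8 and KRT10) to r = 0.83 (KRT7 and KRT18). KRT10 also ran against KRT17 (-0.82) and KRT80 (-0.80), while KRT8 and KRT80 had r = 0.78, KRT16 and KRT17 r = 0.77, and KRT8 and its partner KRT18 r = 0.56.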

How the data were processed

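The authors deposited 1 table of 16884 genes with FPKM, TPM and estimated counts for 17 libraries of poly-A RNA, plus their own log2 fold changes with p-values and q-values, per the file headers. The expected counts, of which 13.1% are not whole, were taken as RSEM output. HISAT, Bowtie2 2.3.4.3, RSEM 1.3.1, DESeq2 1.4.5 and build GRCh38.p13 are named per the submitters' processing notes, and their settings are not given in the sources used here. No per-sample column was without a sample.

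After rounding to whole numbers, expected counts went into edgeR 4.0.16 under R 4.3.3 (TMM, filterByExpr, quasi-likelihood test) in 1 fit of the 3 groups over 16 libraries, without 10 mM library 1. It covered 12545 genes with 13 residual degrees of freedom, and Benjamini-Hochberg adjustment ran over all of them, with 0.05 as the threshold. The SE was derived from the log2 change and the F statistic. Levels are the authors' deposited FPKM as mean ± SD. DESeq2 1.42.0 and limma 3.58.1 (on log2(FPKM + 1) or log2(FPKM + 0.1), for genes over 1 FPKM in 5 libraries) served as alternatives. The fit was also run on simulated data of independent libraries without blocks. That run cannot show the error rate of the fit for libraries that fall into blocks. Coding sequences came from GENCODE 29, and pseudogene names from RefSeq (GRCh38.p14).

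The keratins and all gene lists were chosen with earlier results of these data known. Named genes, beside those said to be chosen later, were all members, called other keratins with at least 1 FPKM, and, per list and dose, up to 4 called genes with the smallest p. Some of the genes this rule takes are not reported here. Fits within numbered blocks were added after the data were seen. Libraries sharing a number did not pair: their deviations correlated at -0.37 to 0.46 (median 0.25), over 0.1 in 11 of 14 pairs, against a median of -0.13 and 26 of 71 for other pairs across groups. The blocks matched across groups: leaving out control library 1, the correlation was 0.15 to 0.51 within a block and -0.48 to -0.13 between blocks. The main fit held no term for these blocks, so shifts between them are part of its SE and p-values. An SE from a fit within a block measures only the spread between a few close libraries.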

Additional observations from a re-analysis of the deposited data

Results flagged for a closer look

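Within-group gaps were screened with Dixon's criterion in 21 groups of libraries for the 7 tested keratins, where chance flags about 1 group in 20. Of the 7 gaps past it, 6 belong to library 1 of the 10 mM group, which was already set apart and is 1 event, so their number is not read against that rate. That library was too far above the rest of its group for KRT7 (3584 FPKM, next library 506), KRT8 (643 FPKM, next 369), KRT10 (30.2 FPKM, next 16.5), KRT16 (13.9 FPKM, next 1.28), KRT17 (307 FPKM, next 101) and KRT18 (1254 FPKM, next 386). At 16 mM, library 2 stood above the rest for KRT16 (1.60 FPKM, next 0.91), which rests on few counts, and without it the log2 change of KRT16 between 16 mM and 10 mM was -0.11. No explanation was tested for either library.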

How the results depend on the processing

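DESeq2 size factors and the DESeq2 Wald test left the direction and call of all 21 keratin changes as they were. With all 17 libraries, log2 changes turned for KRT7 (1.4 at 10 mM, -1.76 between doses), KRT18 (0.84 at 10 mM), KRT10 (0.20 at 10 mM), KRT8 (-0.45 between doses), KRT16 (-2.33 between doses), KRT80 (-0.04 between doses), FOSL1 (-0.15 between doses), SFN (-0.63 between doses), STUB1 (0.42 at 10 mM) and VIM (0.33 at 10 mM). In the higher-numbered libraries they turned for KRT8 (-0.15 at 10 mM, -0.13 at 16 mM), KRT80 (-0.02 at 16 mM, -0.56 between doses), KRT7 (-0.05 between doses) and ZEB1 (0.17 at 16 mM). In the lower-numbered ones they turned for KRT18 (0.10), LMNB2 (0.09) and RARG (0.03), all at 10 mM, and with close libraries summed for KRT80 (-0.09 between doses). Leaving out 1 library at a time gave -0.02 to 0.12 for KRT7, -0.11 to 0.28 for KRT16 and -0.05 to 0.09 for KRT80, all between doses. The causes were not tested.

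Counts of called genes also moved. The share of all genes called is not given for fits within blocks, without the filter, in limma, on 2 groups alone or without 1 library. Counts from those fits are therefore not read as results about these genes. Keratins called at 10 mM numbered 0 with close libraries summed and 2 in limma on either log2(FPKM) scale, against 4. The FPKM filter used with limma leaves KRT16 untested. At 16 mM they numbered 2 with all 17 libraries and 2 summed, against 5. Between doses they numbered 0 with 17 libraries, 0 summed (1 at an unadjusted p under 0.05), 2 with only the 2 groups compared, 3 in the lower-numbered and 4 in the higher-numbered libraries, against 1. Other keratins at 10 mM numbered 3 without the filter, 0 summed (2 unadjusted) and 0 of 1 tested in limma, against 1. At 16 mM they numbered 2 without the filter, 2 summed, 2 in the lower-numbered libraries and 0 of 1 in limma, against 1, and between doses 1 without the filter and 1 in the lower-numbered libraries, against 0 of 2.

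Other filament genes at 10 mM numbered 0 with 17 libraries (1 unadjusted), 2 without the filter, 5 lower-numbered and 3 higher-numbered, against 1, and at 16 mM 1 with 17 libraries and 1 summed, against 3. Junction genes numbered 7 with 17 libraries and 1 summed at 10 mM, against 15, and 10 and 10 at 16 mM, against 16. Cornified genes at 10 mM numbered 0 summed (1 unadjusted) and 4 lower-numbered, against 2, and at 16 mM 1 with 17 libraries, against 2. Regulators at 10 mM numbered 5 with 17 libraries, 1 summed, 15 lower-numbered and 16 higher-numbered, against 8, and at 16 mM 5, 4, 17 and 20, against 9. Organisation genes numbered 4 with 17 libraries and 0 summed (3 unadjusted) at 10 mM, against 9, and 6 and 7 at 16 mM, against 14. Leaving out 1 library at a time gave 1 to 2 filament genes, 1 to 2 cornified genes and 5 to 12 organisation genes, all at 10 mM. Summing leaves fewer values, so a lost call does not show a smaller change. Fits within blocks measure only the spread between a few close libraries, so a gained call there does not show a larger change.

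Replicate numbers do not pair the libraries: 2 of 16 libraries correlated best with a library of their own number. The replicate block moved 1 count of calls, other filament genes at 10 mM (2, against 1), and the call of no keratin.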
